A study of Caenorhabditis elegans with 2 samples.

Results

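The FMRFamide-like peptide (flp), neuropeptide-like protein (nlp) and insulin-like peptide (ins) genes of Caenorhabditis elegans were taken as all protein-coding genes whose symbol starts with flp-, nlp- or ins-. There were 140 such peptide genes among 19973 nuclear protein-coding genes: 31 flp, 71 nlp and 38 ins genes. The binding data were ChIP-seq of REC-8, for which whole hermaphrodites of strain YL581 were collected as young adults, 50 hours after synchronization as starved L1 larvae. Per the labels, the transgenic line carries REC-8 with GFP-FLAG at its C terminus, sonication broke up the chromatin, and the precipitating antibody was against GFP, while the antibody field names rec-8. The 2 samples were biological replicates of 1 group, a control that the labels name was not analysed here, and no untagged sample was analysed here. Because whole worms were used, germ line and somatic nuclei were mixed, and the cell type that a peak came from cannot be told apart.

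Neuropeptides and insulin-like peptides are made as precursors, cut and trimmed in the secretory pathway, stored in dense-core vesicles and released, mostly from neurons, to act on G protein-coupled receptors or, for the insulin-like peptides, on the insulin receptor DAF-2. Some nlp genes are instead expressed in the epidermis, where their products resemble antimicrobial peptides, and others in the intestine. REC-8 is a kleisin subunit of cohesin that holds sister chromatids together in meiosis and is known from the germ line. The peptide genes therefore served as genes of somatic cells, mostly neurons, in a profile of a germ line protein.

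The strongest peaks with no exon of a protein-coding gene in the 201 bases around their pooled summit are shown for 3 of the 6 peptide genes considered; the others had such an exon there, read from the RefSeq WBcel235 sequence, the same assembly as ce11. At flp-23 (chrIII:8650351-8650551, plus strand) the capitals mark a tRNA-Pro gene, WBGene00023002, which lies on the minus strand, so its sequence appears as the reverse complement. At ins-39 (chrX:1344886-1345086, minus strand, as the gene reads) the capitals mark the bases from the summit of replicate 1 to that of replicate 2. At flp-14 (chrIII:12909726-12909926, plus strand) the capitals likewise mark the bases between the summits of both replicates.
flp-23: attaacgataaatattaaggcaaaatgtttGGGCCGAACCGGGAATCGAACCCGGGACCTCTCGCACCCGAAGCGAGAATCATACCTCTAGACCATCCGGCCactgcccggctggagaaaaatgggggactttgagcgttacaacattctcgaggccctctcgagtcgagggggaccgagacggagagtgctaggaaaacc
ins-39: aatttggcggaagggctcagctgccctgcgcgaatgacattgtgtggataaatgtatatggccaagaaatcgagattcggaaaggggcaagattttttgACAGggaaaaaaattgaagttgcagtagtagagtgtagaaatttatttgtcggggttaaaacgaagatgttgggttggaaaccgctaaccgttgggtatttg
flp-14: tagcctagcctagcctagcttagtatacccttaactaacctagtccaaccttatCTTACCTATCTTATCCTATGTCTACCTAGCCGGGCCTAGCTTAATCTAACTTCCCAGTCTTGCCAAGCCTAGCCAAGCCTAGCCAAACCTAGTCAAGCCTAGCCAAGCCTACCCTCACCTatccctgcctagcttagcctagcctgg

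The flp-23 stretch holds the letters GTTCGANNC, searched on both strands, which are part of the internal promoter (B box) of tRNA genes. These letters were present around the best summit of 1 of the 24 distinct peptide-gene sites, against 5.81% of 10013 nuclear pooled summits and 2.58% of the 9291 summits over 250 bp from a short RNA gene. The flp-14 stretch repeats the letters CCTAGC 10 times in its 201 bases. CCTAGC was the most frequent run of its length in this same stretch, so flp-14 was bound to be among the matches. At least 5 copies of CCTAGC, on either strand, were found at 4 of the 10013 nuclear pooled summits (0.0399%), and no other peptide gene was among them. This rate is therefore only a description of letters taken from flp-14. Such a match describes the sequence and shows no bound factor.

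Separate lists of peaks existed for the single replicates and for their pool. They held 10019 pooled peaks, 17532 peaks in replicate 1 and 14069 in replicate 2, and 739 pooled peaks had passed the authors' reproducibility threshold (the thresholded list). The signal is the authors' peak caller's value, is not scaled between lists, and ran from 39.9 to 5247 in the pooled list with a median of 48.5. The lists do not give read counts, so the depth behind a peak is unknown and a gene without a peak cannot be called unbound. A gene was called marked when a summit lay from 1000 bp upstream to 500 bp downstream of 1 of its transcript starts. With 1 group of samples and peak lists alone, no test between groups was possible, so shares are given with exact (Clopper-Pearson) 95% binomial intervals, which cover counting error only and treat genes as independent.

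In each list the share of marked peptide genes was below that of all protein-coding genes, though its interval included it. In the pooled list 25 of the 140 peptide genes were marked (17.9%, 11.9 to 25.2), against 21% of all protein-coding genes. Among genes with no other gene's start in the window, 22 of 126 peptide genes were marked (17.5%, 11.3 to 25.2), against 18.6%. With another start there, 3 of 14 were marked (21.4%, 4.66 to 50.8), against 29.1%. In replicate 1, 33 were marked (23.6%, 16.8 to 31.5), against 31%, and in replicate 2, 29 were marked (20.7%, 14.3 to 28.4), against 26.6%. At least 1 of these 3 lists marked 52 peptide genes (37.1%, 29.1 to 45.7), against 42.4% of all genes, and 88 had no summit in any of them.

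The gap widened where a peak was asked for in both replicates. Both replicate lists marked 10 peptide genes (7.14%, 3.48 to 12.7), against 15.6% of all genes, and this interval lay below that share. With windows of 250 bp on each side of a start it did not (2.86%, 0.784 to 7.15, against 5.67%). On the autosomes both replicates marked 6 of 106 peptide genes (5.66%, 2.11 to 11.9), against 16.7% of all genes there. On X they marked 4 of 34 (11.8%, 3.3 to 27.5), against 8.53%, so the lower share was not seen on X. The pooled list and both replicates marked 9 peptide genes (6.43%, 2.98 to 11.9), against 13.2%. Of the 33 peptide genes marked in replicate 1, 30.3% (15.6 to 48.7) were also marked in replicate 2, whereas 50.3% (49.0 to 51.5) of all genes marked in replicate 1 were. Of the 29 peptide genes marked in replicate 2, 34.5% (17.9 to 54.3) were marked in replicate 1, against 58.5% of all genes. Peaks of both replicates overlapped by at least 50% of the shorter peak at 8 peptide genes: flp-14, flp-23, flp-34, ins-37, ins-39, nlp-22, nlp-23 and nlp-58 (5.71%, 2.5 to 10.9, against 11.8% of all genes). These were 7 places, since nlp-22 and nlp-23 are neighbours that share 1 peak.

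Strong peaks at peptide genes were few. The thresholded list marked 1 peptide gene, flp-23 (0.714%, 0.0181 to 3.92), against 2.35% of all genes. The 1000 strongest pooled peaks marked 2 (1.43%, 0.173 to 5.07), against 3.24% of all genes. The 2500 strongest marked 4 (2.86%, 0.784 to 7.15), against 7.12%, and the 5000 strongest marked 12 (8.57%, 4.51 to 14.5), against 12.3%. Each of these intervals, and that of the thresholded list, included the share of all genes. Among the 25 marked peptide genes the median of the best pooled signal was 48.2 (interval of the median 43.8 to 51.7), and among all 4197 marked genes it was 51.4. The interval of the peptide genes included that value. The median peptide gene peak ranked 5124th of the 10019 pooled peaks, close to the middle of the list, against 4049th over all marked genes.

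**Figure D1:**
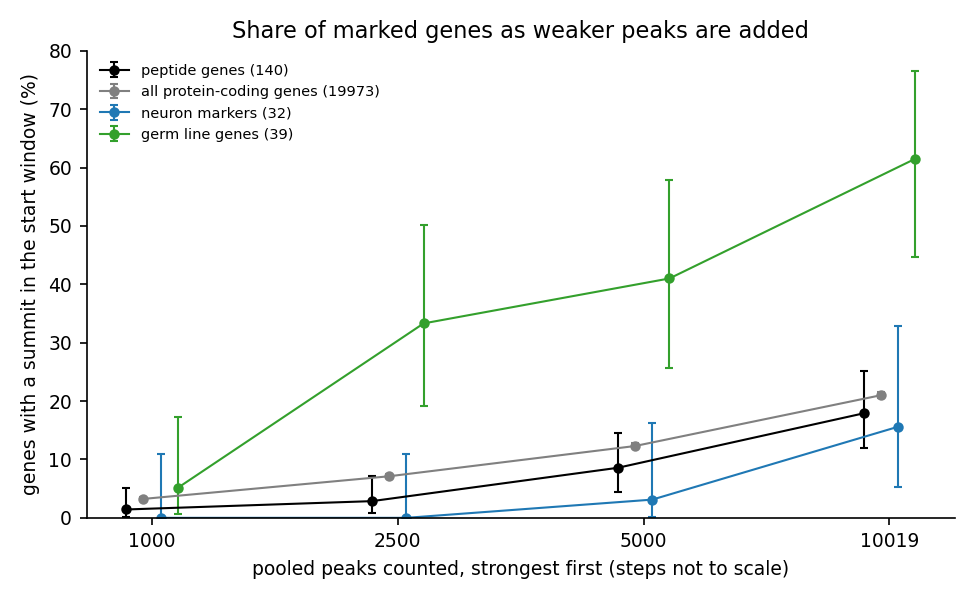
Percent of genes with a summit in the start window (vertical axis) among the 1000, 2500 and 5000 strongest and all 10019 pooled peaks (horizontal axis, steps not to scale), for peptide genes, all protein-coding genes, neuron markers and germ line genes. Points are shares and bars exact 95% binomial intervals, and the peptide genes rise from 1.43% to 17.9% while the germ line genes reach 61.5%.

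The intervals of the 3 families overlapped. In the pooled list 5 of 31 flp genes (16.1%, 5.45 to 33.7), 11 of 71 nlp genes (15.5%, 8.0 to 26.0) and 9 of 38 ins genes (23.7%, 11.4 to 40.2) were marked, against 21% of all genes. At least 1 of the 3 lists marked 38.7% of flp genes, 29.6% of nlp genes and 50.0% of ins genes (33.4 to 66.6), against 42.4% of all genes. The ins genes were marked at about the share of all genes in each of these 3 lists. Both replicates marked ins-37 and ins-39 among them (5.26%, 0.644 to 17.7), against 15.6% of all genes, which this interval included.

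**Figure D2:**
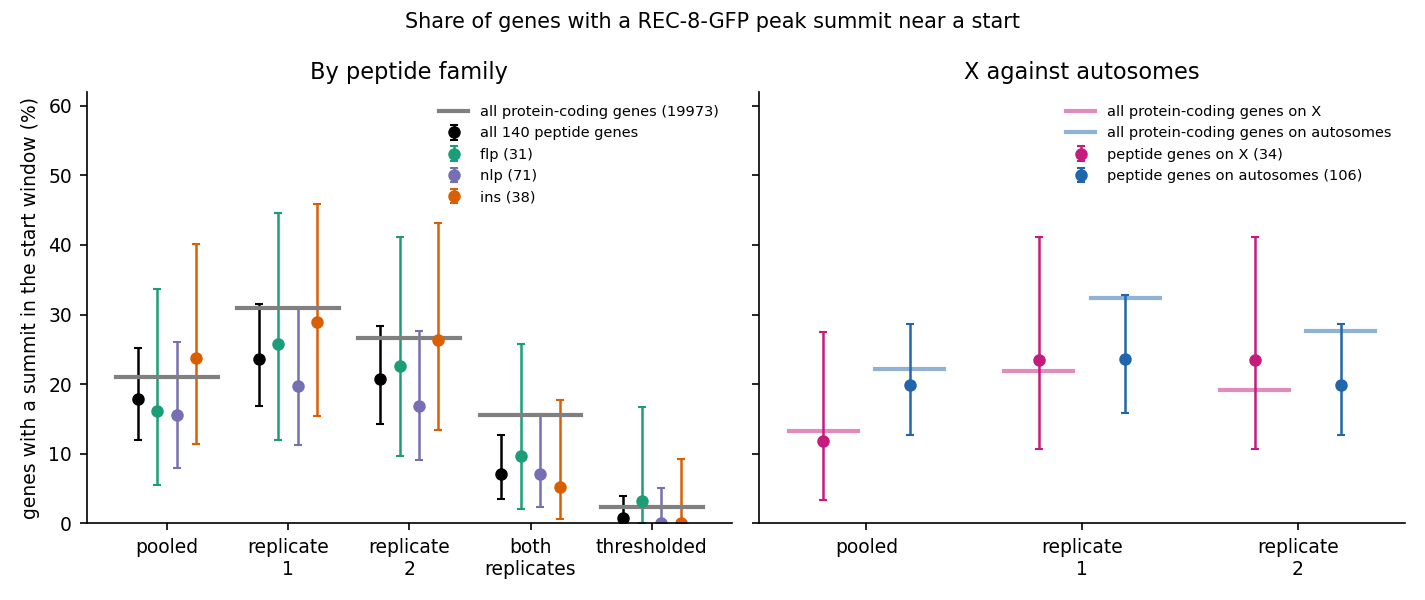
Percent of genes with a summit in the start window in each peak list, by peptide family (left) and on X or autosomes (right). Points are shares of peptide genes, bars exact 95% binomial intervals and horizontal lines the share of all protein-coding genes. Among all 140 peptide genes the interval lies below that line for genes marked in both replicates at once (3.48 to 12.7 against 15.6%). It includes the line in each single replicate list.

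The X chromosome carries 34 of the peptide genes (24.3%), against 13.7% of all protein-coding genes. In the pooled list 4 of these 34 were marked (11.8%, 3.3 to 27.5), against 13.3% of all genes on X. On the autosomes 21 of 106 were marked (19.8%, 12.7 to 28.7), against 22.2%. On both kinds of chromosome the interval of the peptide genes included the share of all genes there. In replicate 1, 8 of 34 peptide genes on X were marked (23.5%), against 21.9% of all genes on X, and 25 of 106 on autosomes (23.6%), against 32.4%. In replicate 2 the counts were 8 of 34 on X (23.5%), against 19.2%, and 21 of 106 on autosomes (19.8%), against 27.7%. The lower share on X in the pooled list was thus not seen for peptide genes in either replicate list, and all 4 intervals of the replicate lists overlapped. The 4 peptide genes on X with a pooled peak were ins-39, nlp-22, nlp-23 and flp-28.

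The strongest peak at a peptide gene belonged to flp-23, which encodes an FMRFamide-like peptide. Its pooled signal was 130.0, rank 334, and it was 74.4 in replicate 1 (rank 264) and 56.3 in replicate 2 (rank 516). The pooled peak (III, 8650236 to 8650665) had its summit 316 bp upstream of the start, inside the tRNA-Pro gene shown above (III, 8650381 to 8650452). The replicate summits lay 317 bp and 298 bp upstream, so both lists placed the peak at the same spot. The next peptide gene was ins-39 on X, with a pooled signal of 89.8 (rank 792, just short of the 739 thresholded peaks). Its signal was 54.9 in replicate 1 and 31.1 in replicate 2, and the intergenic summits lay 565, 563 and 566 bp upstream of the start. The nearest short RNA gene was 34617 bp from the pooled summit, and the nearest other gene start, that of ttr-37, was 7811 bp away.

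The flp-14 peak had a pooled signal of 62.2 (rank 2091), and of 31.7 and 29.6 in replicates 1 and 2. The pooled summit lay between genes 684 bp upstream of the start, and those of the replicates lay 611 bp and 730 bp upstream. The repeated CCTAGC letters extend on both sides of them. The nlp-62 peak on chromosome I had a pooled signal of 61.7 (rank 2151) and 42.2 in replicate 1, and replicate 2 had no summit in the window. Its summit was 59 bp from another tRNA-Pro gene, WBGene00023023. The stronger of the 2 pooled peaks at ins-37 had a signal of 53.3 (rank 3529), lay in the gene's own UTR and was 52 bp from a snRNA gene. At ins-37 the replicates had best signals of 40.5 and 29.5. In all, 3 of the 25 best summits (12%), those of flp-23, nlp-62 and ins-37, lay within 250 bp of a tRNA, snoRNA, snRNA or rRNA gene, against 5.24% over all marked genes, and the part of these short RNA genes in the signal was not tested.

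Among the remaining peptide genes with a pooled peak, nlp-24, which encodes an opioid-like peptide, had a pooled signal of 53.2 and 42.3 in replicate 1, and no summit in replicate 2. The shared peak of nlp-22 and nlp-23 on X had signals of 51.7, 31.1 and 24.5 in the pooled, replicate 1 and replicate 2 lists. The peptide of nlp-22 promotes larval sleep. Its summit lay in a coding exon of nlp-23, 165 bp downstream of that gene's start and 705 bp upstream of the start of nlp-22. A peak at nlp-58 was present in all 3 lists (49.4, 30.5 and 20.9). The ins-10 peak reached rank 899 in replicate 2 (44.7) and had a pooled signal of 49.4, but replicate 1 had no summit in the window. At nlp-47 the signals were 48.2, 21.1 and 33.7, with the summits of replicates 1 and 2 at 414 bp and 137 bp downstream of the start, so the replicates did not share 1 position.

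Weaker peptide gene peaks were mostly found in 1 replicate, and equally weak peaks of all genes were not counted for comparison. At any strength, the pooled list and replicate 1 without replicate 2 marked 7.14% of peptide genes, against 4.48% of all genes. The pooled list and replicate 2 without replicate 1 marked 4.29%, against 2.91%. The cholecystokinin-like gene nlp-12 had 47.4 in the pooled list and 24.7 in replicate 2, and ins-6, whose product activates DAF-2, had 42.5 and 27.4, and neither had a summit in replicate 1. The reverse held at ins-25 (52.0 pooled, 30.3 in replicate 1), nlp-18 (49.3 and 33.2), ins-29 (44.4 and 25.3), nlp-69 (44.4 and 29.2), ins-21 (43.8 and 26.3) and nlp-81 (42.5 and 27.9). The flp-28 peak had 44.9 in the pooled list and 31.3 in replicate 2. The 5 lowest marked peptide genes, ins-24, flp-25, flp-34, ins-23 and nlp-26, had pooled signals from 42.0 down to 40.4, next to the list's lowest value of 39.9. Of these, flp-34 alone had a summit in both replicates, 745 bp and 752 bp upstream of its nearest start.

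**Figure D3:**
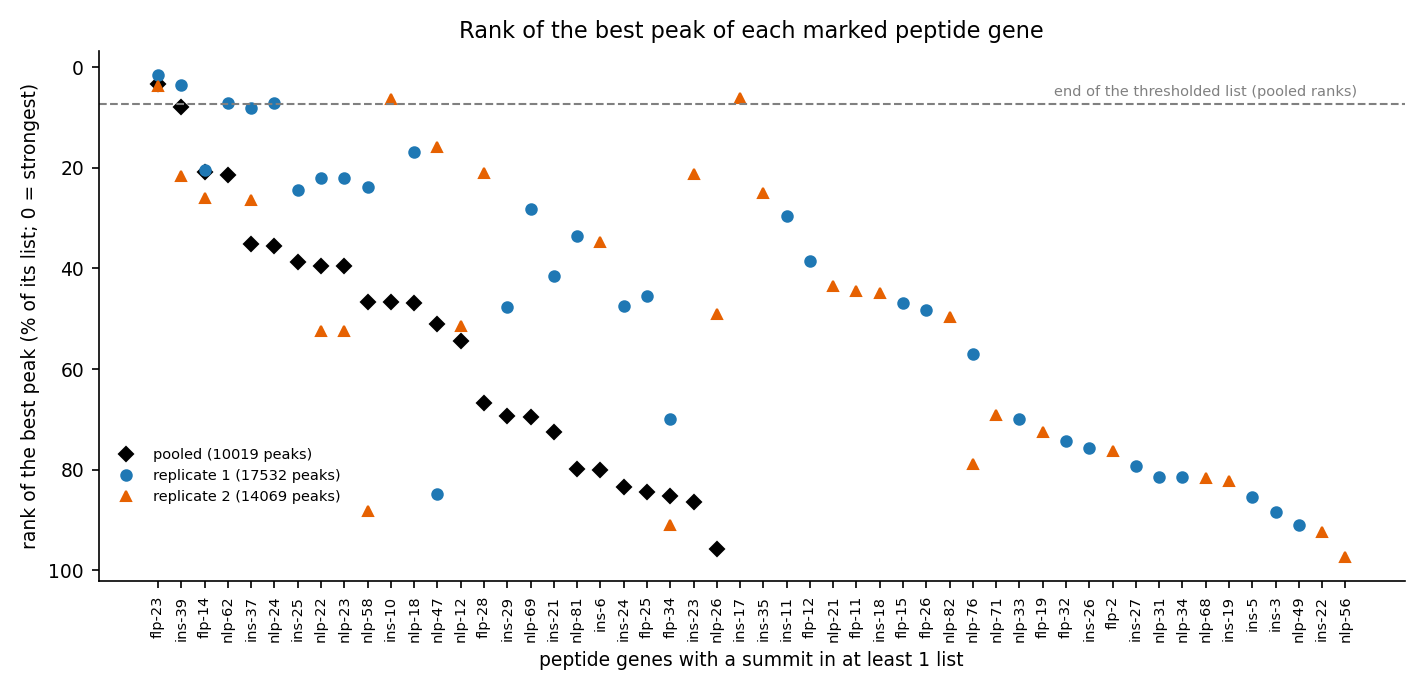
Rank of the best peak of each of the 52 peptide genes marked in at least 1 list, as a percent of its list (vertical axis, 0 = strongest), in the pooled list, replicate 1 and replicate 2. A missing symbol means no summit in the window, the dashed line is the end of the thresholded list in pooled ranks, and only flp-23 has a pooled peak above it.

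Several peptide genes with known roles had no peak in any list. These were flp-1; flp-18 and flp-21, whose peptides act on the receptor NPR-1; nlp-29, an epidermal antimicrobial-type gene; nlp-40, an intestinal gene of the defecation cycle; ins-1, an antagonist of DAF-2; and ins-7, an agonist. The nearest pooled summit was 2423 bp from flp-1, 1933 bp from flp-18, 2318 bp from flp-21, 13512 bp from nlp-29, 1975 bp from nlp-40, 2284 bp from ins-1 and 7606 bp from ins-7. Replicate 2 alone marked flp-11, a gene of the sleep neuron RIS (25.7), and ins-18, an antagonist of DAF-2 (25.6). Over all 140 peptide genes the median distance from a start to the nearest pooled summit was 4146 bp, against 3308 bp over all protein-coding genes, and on X both medians were 4497 bp.

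Peptide genes often lie in groups, and the counts in these are given as a description, beside 28% of all genes marked in the pooled list on chromosome I, 21.3% on II and 17% on V. Over all chromosomes, replicate 1 marked 31% of all genes and replicate 2 marked 26.6%. The 7 ins genes on chromosome I from 14012369 to 14037777 included 3 marked in the pooled list (ins-24, ins-25 and ins-29), 5 in replicate 1 and 0 in replicate 2. The 6 epidermal nlp genes on V from 3978825 to 3989770 (nlp-27 to nlp-31 and nlp-34) had 0 in the pooled list, 2 in replicate 1 and 0 in replicate 2. The 2, nlp-31 and nlp-34, shared their best peak, with a signal of 21.4, and nlp-31 had 2 peaks in its window. The 6 ins genes on II from 5988524 to 6011321 had 1 in the pooled list, ins-6. Of 13 groups of peptide genes with gaps of at most 20000 bp, the cluster on chromosome I was the largest. Its genes were marked in the pooled list and in replicate 1, with no summit called in their windows in replicate 2.

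In the pooled list, peaks of peptide genes lay mostly downstream of the start. Of their 25 best summits, 15 (60%) lay from 0 to 300 bp downstream of the nearest own start and 10 (40%) over 300 bp upstream, with 0 in the 300 bp before the start. Over all marked genes those shares were 20.3%, 38.5% and 31%. The peptide genes had a summit in an own coding exon in 8 of 25 cases (32%), against 15.6% of all marked genes, and between genes in 5 (20%), against 47.3%. By family, 0 of the 5 flp summits, 8 of the 11 nlp summits and 7 of the 9 ins summits were downstream in the pooled list. In replicate 1 these counts were 2 of 8, 8 of 14 and 7 of 11, and in replicate 2 they were 1 of 7, 6 of 12 and 5 of 10, and the difference between families was not tested. These bins were set after the positions had been seen and only describe these summits.

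The pattern was weaker in the single replicates. In replicate 1 the stretch from 0 to 300 bp downstream held 39.4% of 33 peptide gene summits, against 22% of all marked genes, and the 300 bp upstream held 9.09%, against 26.4%. In replicate 2 the shares were 27.6% of 29, against 21.2%, and 6.9%, against 27.9%. The low share just upstream of the start was thus seen in all 3 lists, and the high share just downstream was largest in the pooled list. Peptide genes are short, with a median length of 888 bp against 2027 bp, and another gene's start lay in the window of 10.0% of them, against 23.3% of all genes. Among all marked genes of at most 1000 bp, 27.3% of pooled summits lay in the 300 bp upstream and 20.3% in the 300 bp downstream. Among marked genes with no other start in the window the shares were 27.4% and 22.5%. Other lists varied too. The str chemoreceptor genes had 7.69% of 13 pooled summits just upstream and 30.8% just downstream, the peptide receptor genes had 33.3% and 22.2% of 9, and the germ line genes had 33.3% and 4.17% of 24. In replicate 1 the str genes (12.5% and 31.2% of 32) and the receptor genes (10.5% and 31.6% of 19) had low shares just upstream, and in replicate 2 they had 28.6% and 9.52% of 21, and 30.8% and 15.4% of 13. A low share just upstream of the start was therefore also found in other lists of genes, in the pooled list and replicate 1.

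**Figure D4:**
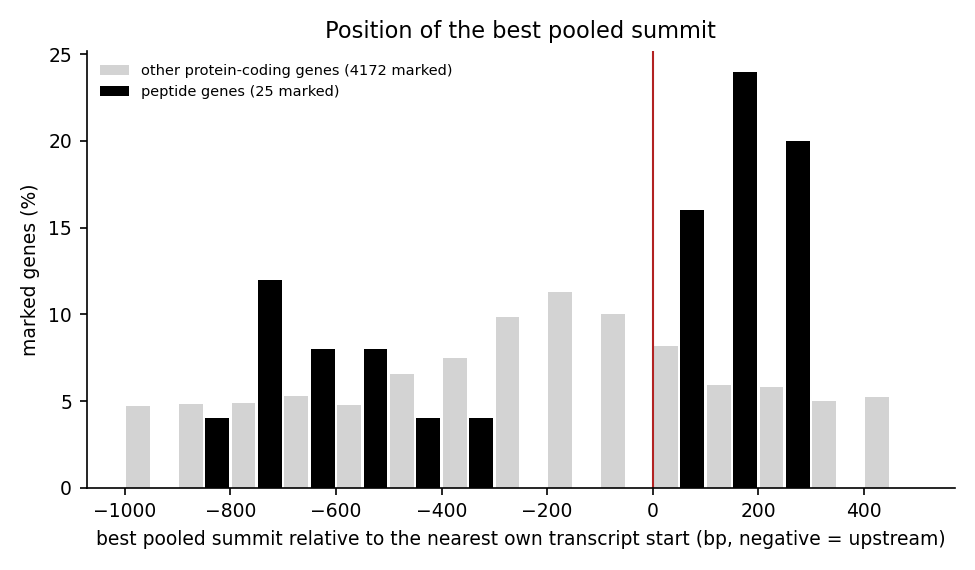
Percent of marked genes (vertical axis) by distance of the best pooled summit from the nearest own transcript start in bins of 100 bp (horizontal axis, negative values upstream), for the 25 marked peptide genes (black) and the 4172 other marked protein-coding genes (grey). The peptide genes have no summit in the 300 bp before the start, where the grey bars are highest.

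The edge of the window hid the other strong peaks near peptide genes. At ins-17 a thresholded peak (III, 4476850 to 4477279) with a pooled signal of 101.5, rank 601, had its summit 507 bp downstream of the start, 7 bp outside the window. The same peak had signals of 56.7 in replicate 1, 515 bp downstream, and 45.8 in replicate 2, 483 bp downstream, so replicate 2 alone counted ins-17 as marked. The summit lay at the end of ins-17, 1147 bp from the start of rps-1, a ribosomal protein gene. At nlp-76 a thresholded peak (X, 12664997 to 12665426) with a pooled signal of 184.7, rank 116, lay 1309 bp upstream and 16 bp from the tRNA-Tyr gene WBGene00009555, with signals of 100.8 and 85.1 in replicates 1 and 2. These 2 genes were picked out after their values were seen. Just inside the window the pooled summits closest to its edges were those of nlp-81, 887 bp upstream, and nlp-12, 295 bp downstream. The nearest pooled summit beyond the upstream edge lay 1039 bp upstream of nlp-26.

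In the pooled list, the lists of genes that act with the peptides also had shares below that of all genes, with intervals that included it except for the receptors. In replicate 1 this held for the receptors (18.1%, against 31%) but not for the processing and release genes (35%, 15.4 to 59.2) or the insulin signalling genes. Among 20 genes of peptide processing and release, 3 had a pooled peak (15.0%, 3.21 to 37.9): unc-31, which drives dense-core vesicle release (70.3), unc-108, a Rab2 GTPase of vesicle maturation (54.9), and egl-3, the proprotein convertase (44.7). Both replicates had summits at unc-31 (45.3 and 28.7) and unc-108 (37.3 and 24.1), while egl-3 had one in replicate 1 alone (27.7). Among 105 peptide receptor genes 9 were marked (8.57%, 3.99 to 15.6), an interval below the 21% of all genes. The strongest was frpr-10, an FMRFamide receptor family gene, with 94.5 in the pooled list (rank 713, thresholded), 36.5 in replicate 1 and 55.1 in replicate 2, and its summit lay 366 bp downstream of the start. It was followed by gnrr-2 (54.0), npr-33 (53.5) and npr-1 (48.2), the last a receptor for FLP-18 and FLP-21 peptides that acts in social feeding.

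Among the 9 other peptide genes, daf-28, an insulin-like agonist of DAF-2 that does not carry an ins symbol, had a pooled signal of 49.4 and signals of 22.7 and 23.8 in the replicates. In the insulin signalling list 2 of 12 genes were marked (16.7%, 2.09 to 48.4), daf-16, the FOXO factor downstream of DAF-2 (55.0), and the kinase gene pdk-1 (48.8), and both had a summit in replicate 1 but not in replicate 2. Replicate 1 marked 7 of these 12 genes (58.3%, 27.7 to 84.8), against 31% of all genes, and replicate 2 marked 2 (16.7%), against 26.6%. At least 1 of the 3 lists marked 8 of them (66.7%, 34.9 to 90.1), against 42.4% of all genes. In the pooled list, the lists of neurons and chemosensation gave similar or lower shares than the peptide genes: 5 of 32 neuron markers (15.6%, 5.28 to 32.8), led by unc-33 (51.2) and the synaptobrevin gene snb-1 (46.8), and 13 of 193 str chemoreceptor genes (6.74%, 3.63 to 11.2), led by str-68 and str-69, which share a peak (58.6). Replicate 1 marked 31.2% of neuron markers, against 31% of all genes, and replicate 2 marked 21.9%, against 26.6%. Both replicates marked 5 neuron markers (15.6%, 5.28 to 32.8), against 15.6% of all genes, and 8 str genes (4.15%, 1.81 to 8.0). The lower share of peptide genes in both replicates was not seen for neuron markers. The neuron marker interval also included the 7.14% of the peptide genes, so these lists cannot be told apart.

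Germ line genes and ribosomal protein genes stood at the other end. Of 39 germ line genes 24 had a pooled peak (61.5%, 44.6 to 76.6), with a median signal of 61.1, led by the eggshell gene cpg-1 (198, thresholded) and pie-1, a germ cell fate regulator (104.3, thresholded). The gene rec-8 itself, of which the strain carries a tagged copy, had 80.8. Of 78 ribosomal protein genes 56 were marked (71.8%, 60.5 to 81.4), with a median signal of 66.0. The interval of the peptide genes (11.9 to 25.2) lay below both. The neuron marker interval overlapped that of the peptide genes, and the receptor and chemoreceptor shares were lower still.

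**Figure D5:**
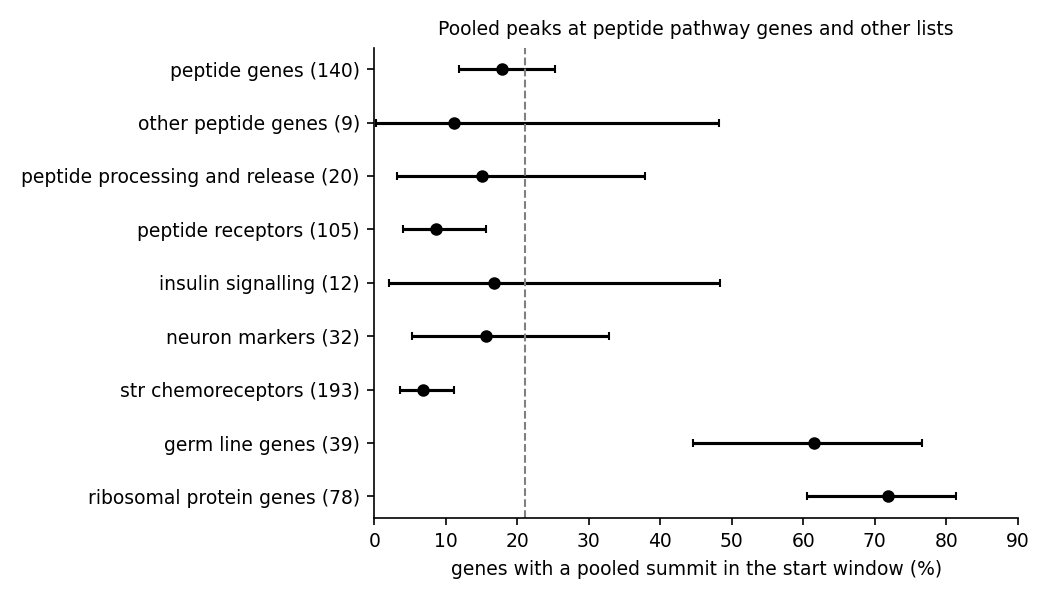
Percent of genes with a pooled summit in the start window (horizontal axis) for the peptide genes, the other genes of the pathway and comparison lists, with the number of genes in brackets. Points are shares, bars exact 95% binomial intervals and the dashed line the share of all protein-coding genes (21%), and the germ line and ribosomal protein genes lie far to its right.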

How the data were processed

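REC-8-GFP ChIP-seq was measured in 2 biological replicates of whole worms. Per the deposited file listings, the authors called peaks against a control in single replicates and in their pool; the thresholded list holds pooled peaks past a limit on the irreproducible discovery rate. The deposited signal of each peak is the authors' peak caller's value, and the deposited summit offset, a position in bp, gave the summit. The sources used here do not give the aligner or peak caller, and depth is unknown. The ce10 lists were not used. Replicate numbers came from the labels. Summits in ce11 were placed on all annotated transcript starts of protein-coding genes in Ensembl release 115 (29784 starts) with Python 3.11.15, pandas 2.3.3 and scipy 1.17.1, and mitochondrial peaks were left out. On simulated summits all 200 planted genes were recovered, and 0 of 152 genes with a summit planted 1 bp outside the window were marked.

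The peptide genes and lists were chosen with earlier results of these data known. Named genes were those on the thresholded list, the 20 with the highest pooled signal, 12 genes in every case and up to 4 per list with the highest pooled signal, and other names were added after their values were seen. Alternatives were other windows, starts, summit assignments, rank limits and each replicate's own list.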

Additional observations from a re-analysis of the deposited data

How the results depend on the processing

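The share of peptide genes marked in the pooled list, over that of all genes, was 0.85 and stayed below 1 under each alternative run, from 0.304 on the thresholded list to 0.974 where a summit counted only for the gene with the nearest start. Without 1 replicate, with the other's own list in place of the pooled one, the ratio was 0.761 to 0.78. The share on X minus that on autosomes was -8.05 percentage points. Over the alternatives it ranged from -11, where a summit counted only for the gene with the nearest start, to 3.72 without replicate 1, and it was -0.0555 without replicate 2. It was 0.333 in the stronger part of the pooled list, where 3 genes on X and 9 on autosomes were marked, so its sign rests on few genes. The median signal over that of all marked genes was 0.937, against 0.844 in the stronger part, 1.08 on the thresholded list, which holds 1 peptide gene, and 0.958 to 0.969 without 1 replicate. Of the 10 genes marked in both replicates, the count became 6 with the 10000 strongest peaks of each list (4.29%, against 10.4% of all genes), 4 with 250 bp on each side of a start (2.86%, against 5.67%, which its interval included) and 18 with windows to the gene end (12.9%, against 29.4%), a setting chosen after seeing the data. The thresholded list marked 1 peptide gene, 0 with 250 bp windows (all genes 1.05%) or without summits near short RNA genes (1.67%), 2 from 2000 bp upstream (flp-23 and nlp-76; 3.14%) and 2 with windows to the gene end (flp-23 and ins-17; 3.28%). No paired analysis was possible because there is only 1 group. Depth, which is unknown, limits each list, and the lists are not independent, since the pooled peaks come from the same replicates.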
